A study of Homo sapiens with 6 samples.

Results

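BHLHE40 and BHLHE41, which encode the transcriptional repressors DEC1 and DEC2, the nuclear receptor gene RORA, the output factor genes DBP, TEF and HLF, and NFIL3 were examined in H460 cells with and without fluoxetine. These 7 genes were found by their symbols among the 31762 genes of the deposited count table. They were selected on earlier results of the same comparison, so their measured differences are a description here. No p-value is given for them, and where a gene is said to be called by a fit, the call comes from the comparison it was picked on and is not independent evidence. The H460 line was derived from a large cell carcinoma of the human lung, and fluoxetine is an antidepressant that inhibits serotonin reuptake. The cells were wild type, grown in RPMI-1640 with fetal bovine serum. RNA was sequenced from 3 libraries labelled control and from 3 libraries of cells given 20 μM fluoxetine for 24 h. The labels name no vehicle for the control cells. They do not state whether the libraries of a group came from separate cultures, so the spread between libraries may be technical.

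In the circadian clock, CLOCK or NPAS2 with BMAL1 (gene ARNTL) activates genes through E-boxes, and the PER and CRY proteins repress that activity. DEC1 and DEC2 bind E-boxes as well and repress there. RORA activates genes with a ROR response element (RORE), where the REV-ERB receptors NR1D1 and NR1D2 repress. DBP, TEF and HLF are PAR-bZIP activators that carry the rhythm to output genes through D-boxes, and NFIL3 represses at the same sites.

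The gene coordinates of all 7 genes in the table were those of GENCODE release 29 on GRCh38. BHLHE40 (ENSG00000134107) is at chromosome 3, 4979116 to 4985323 (plus strand), and BHLHE41 (ENSG00000123095) at chromosome 12, 26120026 to 26125127 (minus strand). RORA (ENSG00000069667) spans 741036 bases of chromosome 15, from 60488284 to 61229319 (minus strand). NFIL3 (ENSG00000165030) is at chromosome 9, 91409045 to 91423862 (minus strand), and DBP (ENSG00000105516) at chromosome 19, 48630030 to 48637438 (minus strand). TEF (ENSG00000167074) lies on chromosome 22 from 41367333 to 41399326 on the plus strand, and HLF (ENSG00000108924) on chromosome 17 from 55265012 to 55325065 on the plus strand. The pathway annotation deposited with the counts places BHLHE40, BHLHE41 and RORA in the circadian rhythm pathway of KEGG, but not the other 4 genes.

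RefSeq promoter windows of 300 bases (250 before and 50 after a start site, GRCh38.p14) were found for all 7 genes, 10 windows in all. The E-box letters CACGTG stood in 4 of the 10 windows, against 7.26% of all 35116 promoter windows. BHLHE40 and BHLHE41 each held 1 E-box, and so did each of the 2 windows of TEF. The RORE letters, ANTAGGTCA on either strand, stood in 1 window of NFIL3 and in 0.49% of all windows. The D-box TTATGTAA (or TTACATAA, its other strand) was in none (0) of the 10 windows and in 0.886% of all, and TGATGNAA (or TTNCATCA), a site of C/EBP and ATF factors, in none (0) of the 10 and in 3.62% of all. The only RORA window surrounds a start site in an intron, 601789 bases downstream of the 5′ end of the gene. These letters are a description of the sequence and not evidence of binding. The windows below are shown because they hold the element of the clock at which DEC1 and DEC2 act, with the E-box in capitals, or, for NFIL3, the element at which RORA acts, with the RORE in capitals. They lie at chr3:4979187-4979486 (plus strand) for BHLHE40, chr12:26124988-26125287 (minus strand) for BHLHE41, chr22:41367205-41367504 (plus strand) for TEF and chr9:91423783-91424082 (minus strand) for NFIL3.
BHLHE40: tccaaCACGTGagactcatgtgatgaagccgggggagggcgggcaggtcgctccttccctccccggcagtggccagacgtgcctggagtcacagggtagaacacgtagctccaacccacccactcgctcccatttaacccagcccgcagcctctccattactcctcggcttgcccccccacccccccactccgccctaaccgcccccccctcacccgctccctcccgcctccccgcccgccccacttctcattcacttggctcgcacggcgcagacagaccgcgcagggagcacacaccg
BHLHE41: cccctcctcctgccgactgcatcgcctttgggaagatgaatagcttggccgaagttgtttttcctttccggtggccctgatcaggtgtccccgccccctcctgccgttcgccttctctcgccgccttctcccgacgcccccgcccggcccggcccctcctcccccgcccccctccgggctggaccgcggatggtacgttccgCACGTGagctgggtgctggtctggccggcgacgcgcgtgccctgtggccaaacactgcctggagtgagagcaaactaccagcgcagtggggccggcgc
TEF: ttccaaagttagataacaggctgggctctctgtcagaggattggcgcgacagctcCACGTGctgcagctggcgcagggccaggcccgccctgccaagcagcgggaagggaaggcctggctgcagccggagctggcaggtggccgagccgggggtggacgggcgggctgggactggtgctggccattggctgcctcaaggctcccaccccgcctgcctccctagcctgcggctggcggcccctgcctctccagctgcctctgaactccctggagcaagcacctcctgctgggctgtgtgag
NFIL3: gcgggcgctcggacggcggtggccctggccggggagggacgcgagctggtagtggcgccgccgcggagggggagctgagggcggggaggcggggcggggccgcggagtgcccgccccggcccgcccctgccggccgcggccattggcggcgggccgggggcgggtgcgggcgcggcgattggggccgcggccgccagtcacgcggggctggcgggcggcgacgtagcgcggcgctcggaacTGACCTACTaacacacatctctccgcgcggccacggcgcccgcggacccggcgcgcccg
The E-box started 245 bases before the start site in BHLHE40, 48 in BHLHE41 and 195 in TEF, and the RORE of NFIL3 started 9 bases before it.

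The counted reads per library were 19343565 to 27823667 for control and 16157507 to 17113538 for fluoxetine, which makes all 3 treated libraries shallower than the control ones. A count of 0 allows up to 3 counts, which were worth 0.108 to 0.186 CPM (reads scaled by library size) in these libraries. The epithelial keratin genes KRT8, KRT18 and KRT19 were abundant, with mean control levels of 1844, 511.5 and 1287 CPM, whereas the epithelial genes EPCAM (0.414 CPM) and CDH1 (0 counts in all 3 control libraries) were near or at 0. The summed level of the 5 epithelial markers was 3057 to 4027 CPM in control libraries and 2689 to 3264 CPM in fluoxetine libraries, and KRT18 fell by 0.72 on the log2 scale (edgeR adjusted p = 0.00162), 1 of 3 markers tested. The part of this in the differences of the 7 genes was not tested. The summed level of NKX2-1 and SFTPC, alveolar lung markers, was at most 0.454 CPM in any library. The summed levels of other cell type markers were at most 2.39 CPM for immune cells (mostly CD14), 0.0582 CPM for endothelial cells and 5.78 CPM for fibroblasts (mostly COL1A1), with overlapping groups or levels near 0.

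The data showed higher mean levels of all 7 genes with fluoxetine. BHLHE40, BHLHE41 and RORA were a little over 2-fold higher, TEF, HLF and DBP between 1.51-fold and 1.78-fold, and NFIL3 1.34-fold. Levels are given as CPM after TMM normalization, and the log2 fold changes and standard errors are from edgeR's quasi-likelihood fit to all 15646 genes kept by its filter on low counts. A gene is called here when its p-value, adjusted over all these genes, was under 0.05. Of the 7 genes, 4 were called (BHLHE40, BHLHE41, RORA and TEF), all higher with fluoxetine, and 7.76% of all tested genes were called higher. BHLHE40, BHLHE41 and RORA also had a fold change of at least 2, as did 1.25% of all tested genes. In 6 of the 7 genes, all but DBP, every fluoxetine library lay above every control library, as in 17.5% of all tested genes. The log2 fold change was above 0 for 54.2% of tested genes. The median log2 fold change was 0.83 over the 7 genes and 0.03 over all tested genes, but the former is the value of HLF, which passed the filter on low counts only through the fluoxetine libraries. Since the genes were picked with this comparison known, nothing is read from these shares. More cells with a transcript and more transcript per cell cannot be told apart in such bulk libraries.

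**Figure D1:**
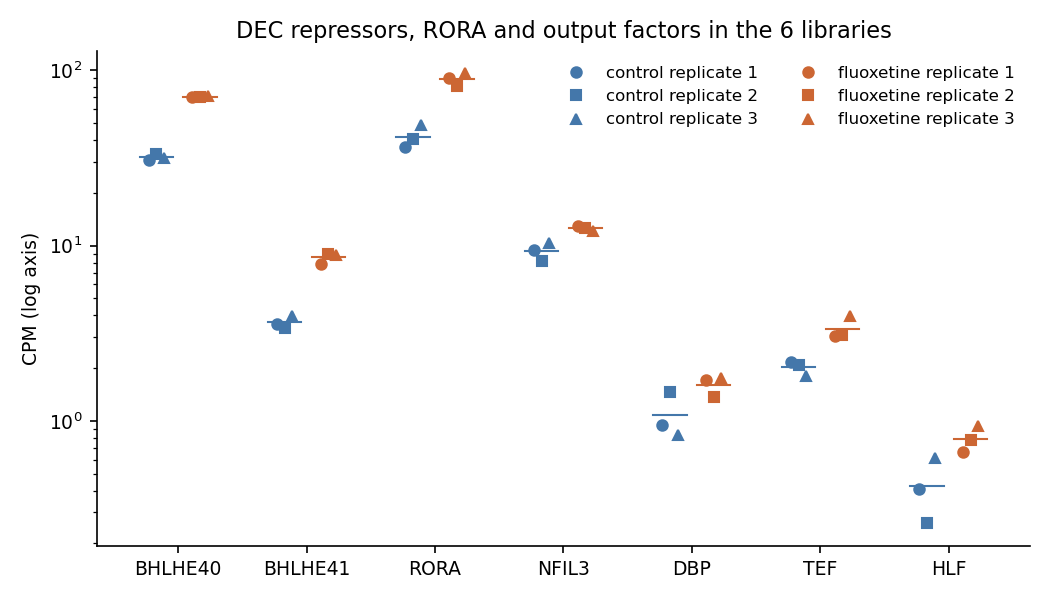
Level of each gene in each library, in CPM on a log axis, with control libraries in blue, fluoxetine libraries in orange, a marker shape for each replicate number and a line at the mean of 3 libraries. The fluoxetine points lie above the control points for every gene except DBP, where control replicate 2 (1.46 CPM) lies above fluoxetine replicate 2 (1.37 CPM).

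BHLHE40 encodes DEC1, a basic helix-loop-helix repressor that many stimuli induce, hypoxia among them. It had 678, 640 and 872 reads across the control libraries (replicates 1 to 3) against 1160, 1177 and 1227 across those with fluoxetine. Its levels were 30.8, 33.3 and 31.4 CPM in the control libraries and 70.4, 70.0 and 71.5 CPM in the fluoxetine libraries. The groups were far apart, although the fluoxetine libraries had fewer reads in all. Group means were 31.8 ± 1.35 CPM without and 70.6 ± 0.74 CPM with the drug (SD, n = 3 each), and the fitted log2 difference was 1.15 with a standard error of 0.08. The coefficient of variation between libraries was 4.23% for control and 1.05% for fluoxetine, against 3.73% and 2.90% from counting error alone. A coefficient of variation from 3 libraries is imprecise.

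BHLHE41 encodes DEC2, the closest relative of DEC1. It had 79, 65 and 110 reads across the control libraries (replicates 1 to 3) against 130, 150 and 152 across those with fluoxetine. The corresponding levels were 3.58, 3.39 and 3.96 CPM, and 7.89, 8.92 and 8.85 CPM. The lowest fluoxetine library was well above the highest control library. The mean level was 3.64 ± 0.293 CPM without and 8.56 ± 0.575 CPM with the drug (SD, n = 3 each), and the fitted log2 difference was 1.22 with a standard error of 0.14, the largest of the 7 genes. SSPN, on the other strand, overlaps BHLHE41 over 3137 of its 5102 bases and had 3 to 13 counts per library. The count of BHLHE41 is uncertain in that stretch where counting did not use strand, and the low count of SSPN does not settle this.

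The 2 DEC genes were compared inside each library, where the ratio does not depend on the scaling of libraries. The log2 ratio of BHLHE40 over BHLHE41 (log2 CPM with a prior count of 2) was 3.07, 3.26 and 2.96 in the control libraries and 3.14, 2.96 and 2.999 in the fluoxetine libraries. Its mean was 3.09 ± 0.16 (SD, n = 3) and 3.03 ± 0.10 (SD, n = 3). The groups overlapped, and the difference of -0.06 was smaller than the spread between replicates.

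RORA encodes a nuclear receptor that activates RORE genes, ARNTL among them. It had 802, 774 and 1351 reads across the control libraries (replicates 1 to 3) against 1489, 1366 and 1653 across those with fluoxetine, so that the raw counts nearly touched while the levels did not. The levels were 36.4, 40.3 and 48.7 CPM in the control libraries and 90.4, 81.3 and 96.3 CPM in the fluoxetine libraries. Control replicate 3, the most deeply sequenced library, had the highest control level. On average it had 41.8 ± 6.28 CPM without and 89.3 ± 7.56 CPM with the drug (SD, n = 3 each), and the fitted log2 difference was 1.09 with a standard error of 0.11. The coefficient of variation of RORA, 15.02% for control and 8.47% for fluoxetine, was above the 3.28% and 2.59% due to counting. Without control replicate 1 the log2 fold change was 0.97, under the fold change of 2. The genes that overlap RORA, AC009560.1, uc_338, AC107241.1 and its antisense gene RORA-AS1, had at most 11 counts in any library. All but uc_338 lie on the other strand, so the same uncertainty about strand holds for RORA where they overlap it.

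The PAR-bZIP activators were scarce in these cells. TEF had 48, 40 and 50 reads across the control libraries (replicates 1 to 3) against 50, 52 and 68 across those with fluoxetine. Its levels were 2.18, 2.08 and 1.80 CPM in the control libraries and 3.04, 3.09 and 3.96 CPM in the fluoxetine libraries, which do not overlap. Group means were 2.02 ± 0.196 CPM without and 3.36 ± 0.518 CPM with the drug (SD, n = 3 each), and the fitted log2 difference was 0.74 with a standard error of 0.20. The call of TEF was lost in each of the 6 fits that left out 1 library and with DESeq2, and its log2 fold change stayed between 0.58 and 0.79 over all settings.

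DBP, whose transcript is strongly rhythmic in liver, had 21, 28 and 23 reads across the control libraries (replicates 1 to 3) against 28, 23 and 30 across those with fluoxetine. Its levels were 0.953, 1.46 and 0.829 CPM in the control libraries and 1.70, 1.37 and 1.75 CPM in the fluoxetine libraries. Control replicate 2 lay above fluoxetine replicate 2, so the groups overlapped. The group means were 1.08 ± 0.334 CPM without and 1.61 ± 0.207 CPM with the drug (SD, n = 3 each), and the fitted log2 difference was 0.60 with a standard error of 0.30. The exact 95% Poisson intervals of the summed counts, which cover counting error only, were 0.810 to 1.30 CPM and 1.28 to 2.01 CPM and overlapped slightly. SPHK2 on the other strand overlaps the 3′ end of DBP over 688 bases and had 80 to 160 counts per library, more than DBP itself, so the count of DBP is uncertain where counting did not use strand.

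HLF was the least abundant of the 7 genes. It had 9, 5 and 17 reads across the control libraries (replicates 1 to 3) against 11, 13 and 16 across those with fluoxetine. Its levels were 0.408, 0.261 and 0.612 CPM in the control libraries and 0.668, 0.773 and 0.932 CPM in the fluoxetine libraries. The highest control library and the lowest fluoxetine library were close, and each rests on under 20 reads. The group means were 0.427 ± 0.177 CPM without and 0.791 ± 0.133 CPM with the drug (SD, n = 3 each), and the fitted log2 difference was 0.83 with a standard error of 0.39. The Poisson intervals of the summed counts were 0.303 to 0.632 CPM for control and 0.570 to 1.09 CPM for fluoxetine, and they overlapped. HLF exceeded the level of the count filter, 0.549 CPM, in 1 of 3 control libraries and in all 3 fluoxetine libraries, so it was tested only through the group in which it was higher. The other 6 genes exceeded that level in all 6 libraries.

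NFIL3, the bZIP repressor at D-boxes, had 209, 157 and 286 reads across the control libraries (replicates 1 to 3) against 212, 211 and 209 across those with fluoxetine. After scaling by library size, its levels were 9.48, 8.18 and 10.3 CPM in the control libraries and 12.9, 12.6 and 12.2 CPM in the fluoxetine libraries. The groups did not overlap but lay close together. The group means were 9.32 ± 1.07 CPM without and 12.5 ± 0.351 CPM with the drug (SD, n = 3 each), and the fitted log2 difference was 0.42 with a standard error of 0.13, the smallest of the 7. NFIL3 was not called in the fit described, although it was called with library size scaling alone, with the replicate block and without control replicate 3.

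**Figure D2:**
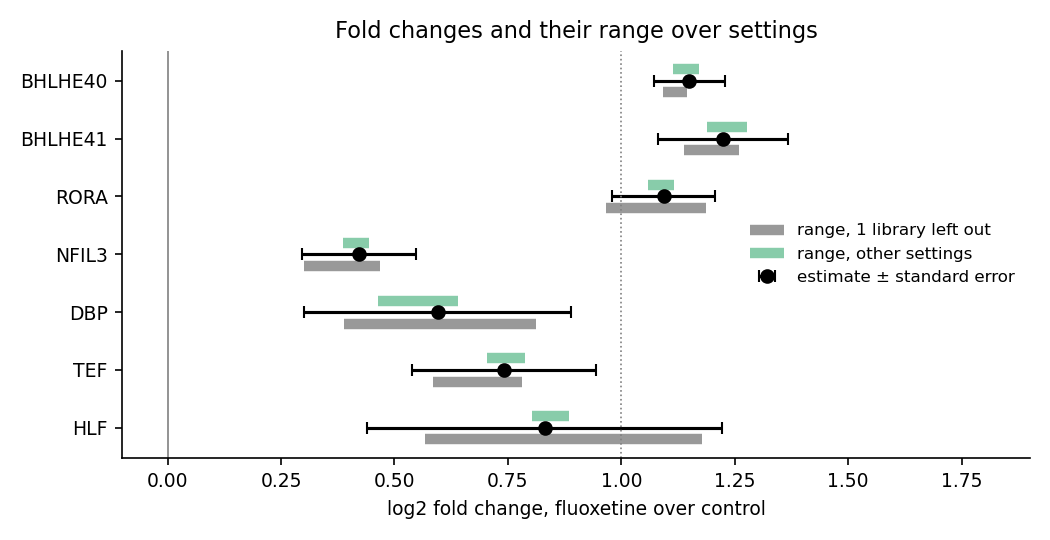
Log2 fold change of each gene (black, ± standard error from edgeR), its range over the 6 fits that leave out 1 library (grey) and over the 8 other settings (green, 7 for HLF), with a dotted line at a fold change of 2. BHLHE40, BHLHE41 and RORA centre between 1.09 and 1.22, and HLF and DBP have the widest bars, with standard errors of 0.39 and 0.30.

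The repressor and the activators of D-boxes were also set against each other inside each library. The log2 ratio of NFIL3 over DBP was 3.19, 2.41 and 3.49 in the control libraries and 2.85, 3.11 and 2.73 in the fluoxetine libraries, with means of 3.03 ± 0.56 (SD, n = 3) and 2.90 ± 0.19 (SD, n = 3). The log2 ratio of NFIL3 over TEF was 2.07, 1.92 and 2.45, and 2.05, 1.99 and 1.60, with means of 2.15 ± 0.27 (SD, n = 3) and 1.88 ± 0.25 (SD, n = 3). The groups overlapped for both ratios. The differences of -0.13 and -0.27 were no larger than the spread between control replicates.

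**Figure D3:**
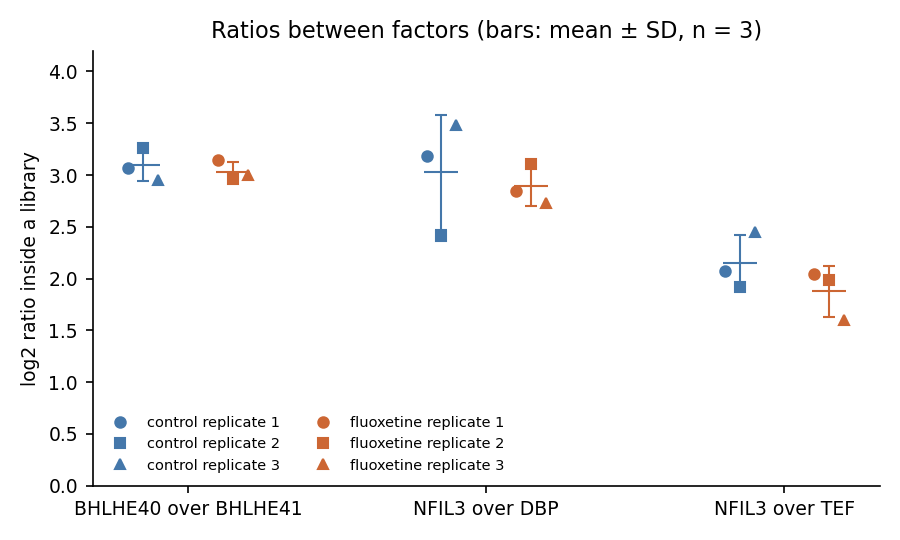
Log2 ratio of the levels of 2 genes inside each library (points, a marker shape for each replicate number), with mean ± SD of 3 control libraries (blue) and 3 fluoxetine libraries (orange). The groups overlap in all 3 ratios, with differences between the means of -0.06, -0.13 and -0.27.

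Levels of different genes were compared per kilobase of their exons in GENCODE release 29, in control libraries. On that scale BHLHE40 was highest, at 8.30 ± 0.351 CPM per kilobase (SD, n = 3), followed by NFIL3 at 4.47 ± 0.514, RORA at 2.45 ± 0.368 and BHLHE41 at 0.923 ± 0.0742 CPM per kilobase. TEF had 0.429 ± 0.0415, DBP 0.165 ± 0.0510 and HLF 0.0647 ± 0.0268 CPM per kilobase (SD, n = 3). The ranges of neighbours in this order did not overlap. The order depends on the length used, because the annotated exons of DBP sum to 6544 bases and its longest basic transcript to 2229 bases, and those of RORA to 17040 and 10844 bases. With the longest basic transcript, NFIL3 (3.92 to 4.94 CPM per kilobase) and RORA (3.36 to 4.49) overlapped, and DBP (0.372 to 0.654) came before TEF (0.410 to 0.496) with overlapping ranges. RORA, at 41.8 CPM, exceeded BHLHE40 in CPM but not per kilobase. In the fluoxetine libraries BHLHE40 had 18.4 ± 0.193, NFIL3 6.01 ± 0.169 and RORA 5.24 ± 0.444 CPM per kilobase (SD, n = 3).

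The other genes of the clock were taken from a list of 21 core clock genes, of which 20 were in the table and 19 were tested. This list and the other gene lists used here were also chosen with earlier results of these data known. Their calls and p-values are therefore a description and not independent evidence. By edgeR's quasi-likelihood test, 4 rose and 1 fell at an adjusted p-value under 0.05, against 7.76% and 5.32% of all tested genes, and these 19 genes had a median log2 fold change of 0.15. The gene that rose most was PER3, a period gene, with 1.46 ± 0.329 CPM without and 4.29 ± 0.485 CPM with fluoxetine (SD, n = 3 each), a log2 difference of 1.57 ± 0.22 (standard error; edgeR adjusted p = 0.00172). The REV-ERB genes NR1D1 and NR1D2, which oppose RORA at RORE sites, rose by 0.81 and 0.59 on the log2 scale (adjusted p = 0.00171 and 0.00737 from edgeR), and the call of NR1D2 was lost without control replicate 2. NPAS2, a partner of BMAL1, rose by 0.50 (adjusted p = 0.00316 from edgeR). TIMELESS, which acts in DNA replication as well, fell by 0.24 on the log2 scale (adjusted p = 0.0412 from edgeR), a call lost in 5 of the 6 fits that left out 1 library and with library size scaling alone (edgeR adjusted p = 0.0544). The log2 fold changes of other core clock genes at 10 CPM or more were 0.31 for CLOCK, 0.15 for ARNTL, -0.10 for ARNTL2, 0.11 for PER1, -0.29 for PER2 and -0.24 for CRY1, and 0.06 for CSNK1D, -0.05 for CSNK1E and 0.21 for BTRC, none of these past the threshold in this fit.

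**Figure D4:**
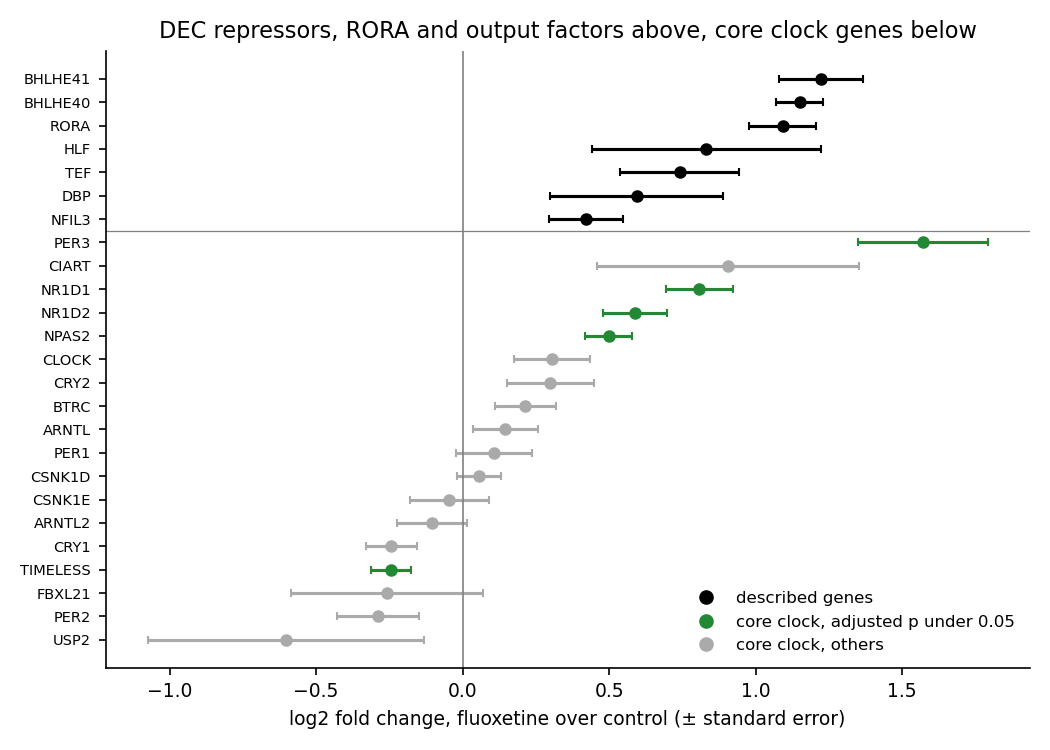
Log2 fold change, fluoxetine over control, with its standard error from edgeR, for the 7 described genes (black, above the line) and the tested core clock genes reported here (below it, green where the adjusted p-value was under 0.05). The 7 genes lie between 0.42 and 1.22, and the core clock genes extend on both sides of 0, up to 1.57 for PER3.

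Genes known to lie under these factors were also counted, leaving out the 7 themselves. The D-box and RORE genes counted are all among the core clock genes above, so their calls are those same calls again. NR1D1 is in both lists. Of all tested genes, 7.76% were called higher and 5.32% lower. Of 6 tested clock genes with D-boxes, 3 rose and 0 fell (PER3, NR1D1 and NR1D2, by edgeR), 3 passed an unadjusted p-value under 0.05, and DESeq2 and limma-voom called 3 each. Their median log2 fold change was 0.70. Of 5 tested RORE genes, NR1D1 and NPAS2 rose by edgeR, with a median of 0.31 over the 5. An unadjusted p-value under 0.05 was reached by 4 of them, among them CRY1, which was lower (log2 fold change -0.24). DESeq2 and limma-voom called 2 each. ARNTL, the best known RORA target, differed by 0.15 ± 0.11 on the log2 scale (standard error; edgeR adjusted p = 0.434). Of 4 tested genes that PAR-bZIP factors control in liver and kidney, 1 rose, the lipid receptor gene PPARA, with 3.16 ± 0.325 CPM without and 5.33 ± 0.794 CPM with fluoxetine (SD, n = 3 each), a log2 difference of 0.75 ± 0.18 (standard error; edgeR adjusted p = 0.0212). POR, for an electron transfer enzyme, had a log2 fold change of 0.35, and ALAS1, for a haem synthesis enzyme, 0.11. In this list 2 genes had an unadjusted p-value under 0.05 by edgeR, and DESeq2 and limma-voom called 1 each. Of 5 tested genes described as repressed by DEC1 or DEC2, edgeR called 0, against 1 at an unadjusted p-value under 0.05 and 0 by DESeq2 and by limma-voom. Among them, the log2 fold changes were 0.11 for PER1, 0.36 for SREBF1, 0.22 for RXRA and 0.01 for PPARG.

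Relatives of these factors by protein family were read in the same way. Of 7 tested HES and HEY genes, the bHLH relatives of the DEC genes, 1 fell, HES7, with 7.995 ± 2.39 CPM without and 4.24 ± 0.556 CPM with fluoxetine (SD, n = 3 each), a log2 difference of -0.90 ± 0.23 (standard error; edgeR adjusted p = 0.0302). In this list DESeq2 called 1 gene and limma-voom 0. The median over these 7 genes was 0.08. Of 4 tested C/EBP genes, which are bZIP relatives of NFIL3 and the PAR factors, 0 were called by edgeR, DESeq2 or limma-voom and 0 had an unadjusted p-value under 0.05, and their median log2 fold change was -0.32.

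The pattern of BHLHE41, the gene with the largest log2 fold change of the 7, was compared over the 6 libraries with that of the 14268 other tested genes at a mean of at least 1 CPM. Among the 5 genes with the highest Pearson correlation of log2 CPM were WLS (r = 0.9996), LIPA (0.9987), CHN2 (0.9978) and GTF2H1 (0.9977), and 1115 genes had r over 0.9. The 6 points fall into 2 groups and share depth and treatment, so these values describe a shared difference between the groups and nothing of shared control. LIPA, the lysosomal acid lipase gene, had 115.6 ± 6.63 CPM without and 186.1 ± 6.79 CPM with fluoxetine (SD, n = 3 each), and WLS, which carries Wnt proteins, had 51.4 ± 1.75 CPM without and 71.4 ± 1.73 CPM with fluoxetine (SD, n = 3 each).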

How the data were processed

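Gene expression was measured by paired-end RNA sequencing in 3 control and 3 fluoxetine libraries of H460 cells, grouped by the treatment given in the labels. The authors deposited raw counts per gene for each library, not normalized or pooled. Columns with the authors' own log2 fold changes and p-values (raw and adjusted) were left unused. The submitters' processing notes name fastp 0.20.0, HISAT2 2.1.0, HTSeq 0.10.0 and DESeq2 1.18.1, and the genome build and strand setting are not given in the sources used here. The coordinates were compared with GENCODE release 29 (GRCh38), and 96.81% of the 31635 shared genes had the same start and end.

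Deposited counts were fitted by edgeR 4.0.16 in R 4.3.3 (glmQLFit and glmQLFTest, TMM, filterByExpr, no covariate, Benjamini-Hochberg adjustment over 15646 genes). The standard error is the log2 fold change divided by the root of the quasi-likelihood F statistic. Levels are CPM with the SD over 3 libraries, and log2 CPM in ratios has a prior count of 2. Each symbol of the 7 genes occurred once. The alternatives were DESeq2 1.42.0, limma-voom (limma 3.58.1), other normalizations and filters, thinning to 16157507 counts, a replicate block, and fits without each library in turn. The length of the longest basic transcript was chosen after seeing the data.

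The 7 genes and the lists were chosen with earlier results of these data known, from general knowledge: core clock, D-box, RORE, PAR-bZIP output and DEC output genes, HES and HEY genes, C/EBP genes and cell type markers. Named were all 7 genes, called genes of the lists (at most 8 each), core clock genes of at least 10 CPM, overlapping genes and the 5 genes most correlated with the member of the largest rise. Some genes that this rule names are not reported here. Other genes were named to complete a list of few members. Promoter sequences were read from RefSeq (GRCh38.p14). The fit was tested on simulated counts. Proteins were not analysed here.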

Additional observations from a re-analysis of the deposited data

How the results depend on the processing

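All 97 log2 fold changes of the 7 genes recomputed under the 14 alternatives were above 0. With at least 10 counts in every library, HLF was not kept and gave no value. The log2 fold changes that moved by more than the SD between replicates were those of BHLHE40, which lay between 1.09 and 1.14 with each library left out, and NFIL3, between 0.30 and 0.47. The number of the 7 genes called lay between 3 and 4 with each library left out, and between 3 (DESeq2) and 5 (library size only and the replicate block) otherwise. BHLHE40, BHLHE41 and RORA were called under each of the 14 alternatives, and DBP under none of them, while HLF was not called wherever it had an adjusted p-value (DESeq2 gave none). The number with a fold change of at least 2 fell from 3 to 2 without control replicate 1. At equal depth the log2 fold changes were 1.13 for BHLHE40, 1.28 for BHLHE41, 1.11 for RORA, 0.79 for TEF, 0.46 for DBP, 0.83 for HLF and 0.41 for NFIL3. Of the core clock genes, between 0 and 2 were called lower with each library left out, and 0 with library size only, where TIMELESS had an adjusted p-value of 0.0544 from edgeR (unadjusted p = 0.00742). The number called higher was 3 without control replicate 2, where NR1D2 was lost, and 5 without control replicate 3 and with the replicate block, both of which added CLOCK. Same-numbered control and fluoxetine libraries deviated from their group means with correlations of 0.03, 0.12 and 0.39, and not every library correlated best with its own number. These correlations, from 3 libraries a group, do not settle whether the numbers pair the libraries. The block moved the number of all genes called from 2047 to 4018. Leaving out 1 library moved that number to between 572 and 3633. With a prior count of 0.5 the ratio differences were -0.08, -0.16 and -0.29. With the longest basic transcript, DBP was 5th and TEF 6th in the level order. No outlier test was made with 3 libraries a group. The low counts of HLF and DBP set the precision of their values.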
